A study of Caenorhabditis elegans with 8 samples.

Results

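The genes described here encode the subunits of the vacuolar proton pump (V-ATPase), the proteins that build autophagosomes and a few proteins of the lysosome membrane, together with the transcription factors HLH-30 and MXL-3. They were chosen by symbol: every gene whose symbol in the array annotation begins with vha-, atg-, lgg- or epg-, and 12 genes named one by one (unc-32, unc-51, bec-1, vps-34, sqst-1, hlh-30, mxl-3, lmp-1, lmp-2, cup-5, rab-7 and scav-3). Of 17118 genes with a probe set annotated to a single symbol, 53 met this rule: 19 of the V-ATPase, 28 of autophagy, and 6 that are transcription factors or lysosome membrane proteins. Each gene was read from its brightest probe set. The c subunit genes vha-2 and vha-3 share all 4 of their probe sets, so neither has a value of its own.

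The samples were whole adult Caenorhabditis elegans of the wild-type strain N2, collected on day 4 of adulthood. From the young adult stage they were kept on FUDR, which stops their eggs from developing. The 4 groups crossed feeding with cholesterol, a sterol that this worm must take from its medium: fed with cholesterol, fasted with cholesterol, fed and deprived of cholesterol since hatching, and fasted and deprived. Each group had 2 arrays, described as independent replicates. The labels give the fast as 24 h in one field and as 48 h from adult day 2 in another, so its length is not settled here.

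The V-ATPase pumps protons into lysosomes and out of epithelial cells. Its V1 sector hydrolyses ATP in the cytosol and its V0 sector carries protons through the membrane, and in worms the V0 a subunit comes in several tissue-specific forms. Autophagy encloses cytoplasm in a double membrane that carries the lipid-linked Atg8 proteins LGG-1 and LGG-2, and delivers it to the lysosome. HLH-30, the worm orthologue of mammalian TFEB, is known to enter the nucleus on fasting and to activate autophagy and lysosome genes, while MXL-3 is known to repress lysosomal lipase genes in fed worms. The arrays measure the transcripts of these genes, not the place or activity of the proteins.

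Values are array intensities as the authors normalised them, and this normalisation hides any change in the total RNA of a worm. Array medians lay between 66.7 and 70.9 units, and the within-group r of replicates was 0.992 to 0.994 over all probe sets. Of the 53 members, 51 had a mean signal above the median of all probe sets; the others, epg-3 (a VMP1-like membrane protein) and epg-5 (which tethers autophagosomes to lysosomes), read 19.2 to 39.6 and 15.4 to 18.1 units and carry little information. Across the whole worm, the summed signal of 10 body wall muscle markers was 14873 to 15921 units in fed and 10734 to 11565 in fasted worms with cholesterol and 11331 to 12201 in fed and 6109 to 8328 in fasted deprived worms, with 6 of the 10 falling on average fasting. The 6 are 60% of the list, beside 10.6% of all probe sets. The muscle list, like the other marker lists used below, was chosen with earlier results of these data known. None of the 10 muscle markers and none of 10 germline markers had a mean signal below the median probe set, while 3 of 9 epidermal markers did. The muscle sum moved with fasting and with deprivation beside the members' changes given below, and its part in them was not tested.

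Changes are log2 differences of log2(signal + 1) with the standard error (SE) of a limma fit over all 8 arrays. A gene "rose" or "fell" only at an adjusted p under 0.05 over all 22548 probe sets. The average fasting effect is the mean of both fasting effects, 4 arrays against 4, and the average deprivation effect is built likewise; these averages share arrays with the single comparisons.

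With fasting averaged over both cholesterol states, 7 members rose and 3 fell, and the other 43 did neither. Over all probe sets 5.5% rose and 5.14% fell. The 10 called members are 18.9% of the 53, beside 10.6% of all probe sets and 15.8% of the brightest 60% of probe sets, where 51 of the members lie; against the latter the share is not far from the background. Autophagy genes supplied 5 of the rises (atg-16.1, atg-16.2, atg-2, epg-6 and epg-7), and the V1 subunit gene vha-15 and the lysosomal membrane protein gene lmp-1 the others. The falls were those of lmp-2, vha-7 and vha-13. None of the 10 changed 2-fold: the largest rise was atg-16.1, 1.65-fold higher in fasted worms, and the largest fall lmp-2, 1.74-fold lower.

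**Figure D1:**
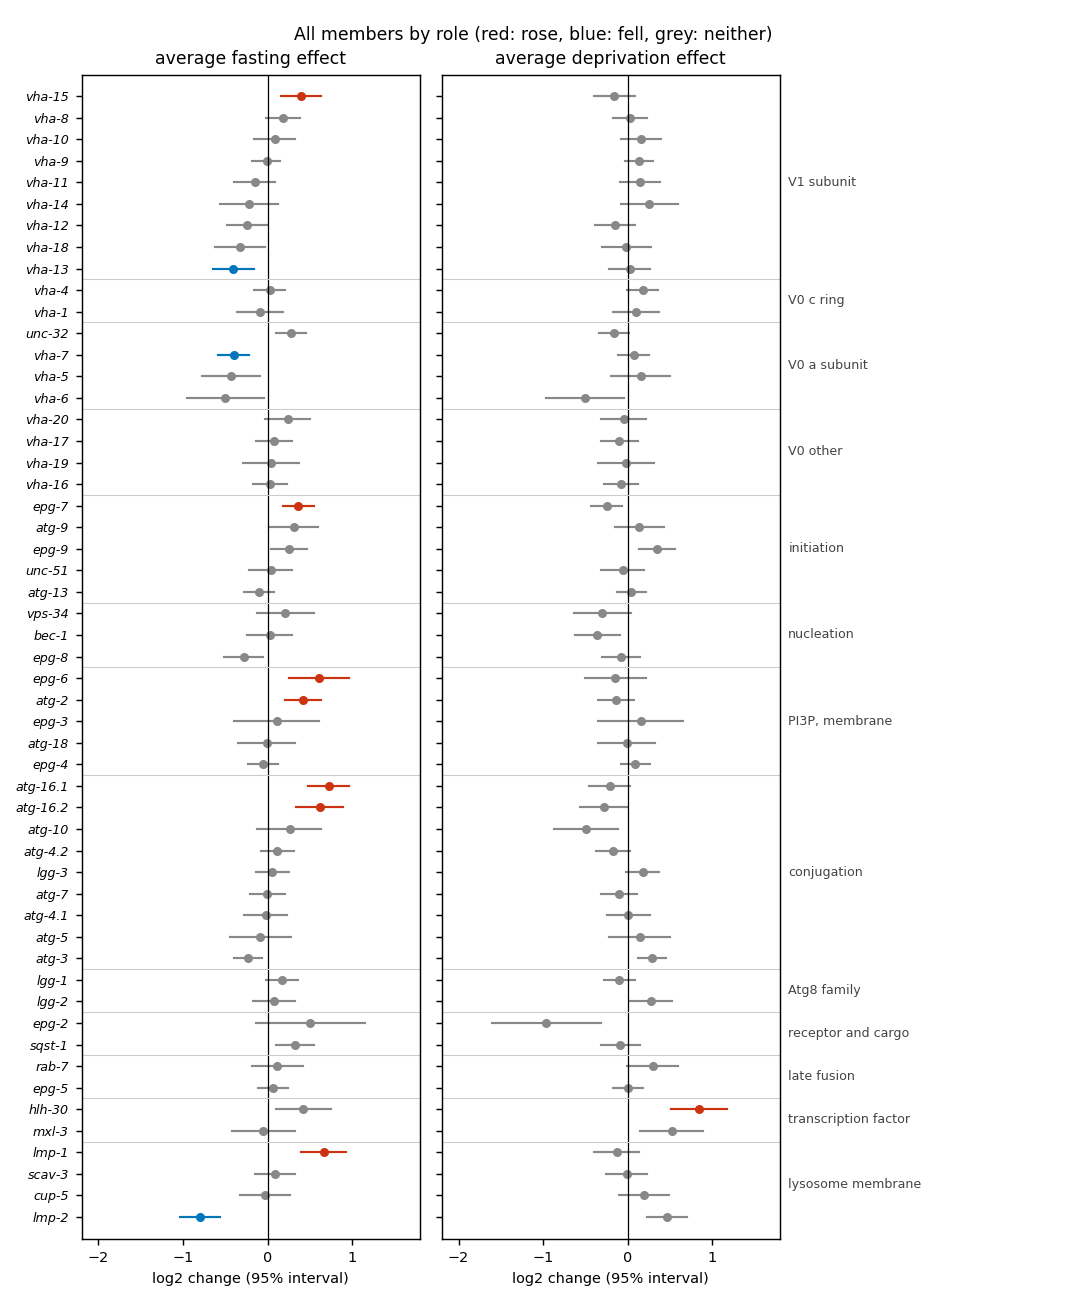
Log2 change of each of the 53 members with its 95% interval, for the average fasting effect (left) and the average deprivation effect (right), grouped by role; red members rose, blue members fell and grey members did neither. On the left 7 members are red and 3 blue, and on the right hlh-30 alone is red.

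In the separate fasting comparisons fewer members passed. With cholesterol, atg-16.1 rose and lmp-2 fell (2 of 53, or 3.77%, beside 5.16% of all probe sets), and without cholesterol lmp-2 alone fell (1 of 53, or 1.89%, beside 2.91%). The difference between the fasting responses of deprived and undeprived worms, tested by the interaction term, passed for 0 members in limma, beside 0.0976% of all probe sets. There 2 members (3.77%), atg-10 and atg-4.2, had an unadjusted p under 0.05, beside 10.4% of all probe sets. In the average fasting effect, 6 members read higher in all 4 fasted arrays than in any fed array and 5 read lower, 20.8% of the members beside 12.9% of all probe sets (6.98% higher and 5.94% lower). Leaving out single arrays lowered the count of 10. Each such fit leaves 1 array in a group, and the share of all probe sets called in it is not given here. The counts therefore do not show whether the members lost more calls than other genes. In worms given cholesterol it came to 6 with the first and 3 with the second fed array removed, and to 6 with the first and 5 with the second fasted array removed. In deprived worms the corresponding counts were 4 and 3 for the fed arrays and 7 and 6 for the fasted arrays. Of the 10, lmp-1, lmp-2 and atg-16.1 kept their call whichever of the 8 arrays was removed, and the other 7 lost it for at least 1 array. With cholesterol the count of 2 was 0 without either array of either fed group or replicate 1 of the fasted worms given cholesterol, and 1 without replicate 2 of the latter. Without cholesterol the count of 1 was 2 without either array of the fasted worms given cholesterol, and 0 without either fed deprived array or replicate 2 of the fasted deprived worms. After shifting each array to an equal median of its bright probe sets (the bright-set shift), 8 members were higher and 2 lower. Over all probe sets the shift called 2724 in place of 2398, and 64.6% of those called were higher in place of 51.7%.

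The replicate numbers 1 and 2 recur in every group, and same-numbered arrays deviated from their group means in like directions, although the labels name no shared day. With the replicate number as a block in the limma fit, 18 of the 53 members were called on average fasting, or 34%, beside 19.6% of all probe sets. The 18 were the 10 above and vha-5, vha-6, vha-12, vha-18 and unc-32 of the V-ATPase, atg-9 and epg-2 of autophagy, and the receptor gene sqst-1. The blocked fit called 8 members (15.1%) on fasting with cholesterol, beside 13.8% of all probe sets, and 6 (11.3%) on fasting without it, beside 7.67%. On deprivation of fed and of fasted worms it called 2 (3.77%) and 1 (1.89%), beside 4.38% and 3.48%. On average deprivation it called 4 (7.55%), beside 9.17%. Calls that hold only with the block are given with their blocked p, here or below. Not repeated below are epg-6 (0.00896), atg-16.2 (0.0202), sqst-1 (0.0368), vha-13 (0.0454) and vha-7 (0.0472) on fasting with cholesterol. The same holds for atg-16.2 (0.0103) and atg-2 (0.0253) on fasting without cholesterol, epg-2 (0.0394) on average fasting and atg-3 (0.0443) on average deprivation. The words "rose" and "fell" refer to the fit without the block.

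The V-ATPase genes as a group had medians near 0 on fasting. Their median log2 change was -0.06 on fasting with cholesterol and -0.06 on fasting without it, beside medians of 0.08 and -0.02 over all probe sets. On average fasting 1 of the 19 rose, 2 fell and 16 did neither, with changes from -0.50 to 0.40. The called share of 15.8% equals that of the brightest 60% of probe sets (15.8%) and stands beside 10.6% of all probe sets. None passed in limma on deprivation of fed or of fasted worms, beside 1.21% and 1.1% of all probe sets. Since the samples are whole worms, fewer cells of a type and less RNA per cell cannot be told apart in any of these values.

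In the V1 sector, vha-13, which encodes the catalytic A subunit, and vha-15, which encodes an H subunit, moved in opposite directions on fasting. vha-13 read 963 and 1083 units in fed worms with cholesterol, 757 and 767 in fasted worms with cholesterol, 965 and 1099 in fed deprived worms and 692 and 887 in fasted deprived worms. All 4 fasted arrays were below all 4 fed arrays, and vha-13 fell to a level 1.33-fold lower on average (-0.41 ± 0.10 SE, adjusted p = 0.0486). Its probe sets did not move together: a dimmer one changed by -0.37 and another, with a mean signal of 868 units, by 0.08, neither past the threshold. With an array left out the call held only when that array was replicate 2 of the fasted deprived worms, and the adjusted p reached 0.156 without replicate 2 of the fed deprived worms. The call was also lost under the bright-set shift (adjusted p = 0.0556), with log2(signal + 16) (0.0543) and with the mean of all vha-13 probe sets (a change of -0.23, adjusted p = 0.16).

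vha-15 gave 494 and 483 units in the fed and 761 and 606 units in the fasted worms with cholesterol, and 464 and 459.5 units in the fed and 524 and 636 units in the fasted deprived worms. Every fasted array was above every fed array, the average change was 0.40 ± 0.10 (SE), and its adjusted p of 0.04995 lay at the threshold. Leaving out either array of the fed worms of either diet, replicate 1 of the fasted worms with cholesterol or replicate 2 of the fasted deprived worms ended that call, with adjusted p up to 0.142. So did cyclic loess (adjusted p = 0.0553), leaving out the dimmest 40% of probe sets (0.0513) and log2(signal + 16) (0.0557). The second H subunit gene, vha-18, changed the other way, by -0.33 ± 0.12 (adjusted p = 0.156; 0.0167 with the block), and did not pass, although its fasted arrays were all below its fed arrays. The difference between vha-15 and vha-18 was not tested. The other 6 V1 genes, vha-8 (E subunit), vha-9 (F), vha-10 (G), vha-11 (C), vha-12 (B) and vha-14 (D), had average fasting changes between -0.24 (vha-12) and 0.19 (vha-8), of which only that of vha-12 passed with the block (0.0447).

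The V0 a subunits divided by gene. vha-7 read 1301 and 1508 units in fed and 1041 and 1091 in fasted worms with cholesterol, and 1507 and 1449 in fed and 1084 and 1151 in fasted deprived worms. The fed and fasted arrays did not overlap at either cholesterol state, and the fall was of like size in each (-0.39 and -0.40), with an average of -0.40 ± 0.08 (SE, adjusted p = 0.021). Its call was lost without replicate 2 of the fed worms given cholesterol, either array of their fasted counterparts, either array of the fed deprived worms or replicate 1 of the fasted deprived worms, with adjusted p up to 0.0709.

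vha-6, the a subunit of the intestinal apical membrane, read 535 and 531 units in fed worms with cholesterol and 505 and 486 in fed deprived worms. After fasting it read 686 and 361 units with cholesterol, where one array was above and the other below all fed arrays, and 304 and 232 without cholesterol, below every other array. The fasting change of deprived worms, -0.90 ± 0.28 (SE, adjusted p = 0.167; 0.0377 with the block), did not pass, nor did the interaction, -0.80 ± 0.39 (adjusted p = 0.52). The fasted replicates with cholesterol decided other vha-6 values. Without replicate 1 of that group the average fasting change was -0.73 (adjusted p = 0.0211) in place of -0.50 (adjusted p = 0.166; 0.0474 with the block). Without replicate 2 the average deprivation change was -0.74 (adjusted p = 0.0372) in place of -0.51 (adjusted p = 0.249), and the deprivation change of fasted worms passed too (-1.37, adjusted p = 0.0489). The fasting change of deprived worms had an adjusted p of 0.0398 when either of those arrays was left out, which enter it only through the estimate of the spread. The summed signal of all 10 intestinal marker genes was 10330 to 10716 units in fed worms with cholesterol, 4370 to 5539 in fasted worms with cholesterol, 8399 to 8625 in fed deprived and 5800 to 6316 in fasted deprived worms; on average fasting 5 of the 10 fell and 1 rose. The sum is weighted towards the bright markers. On average fasting 60% of the 10 were called, beside 10.6% of all probe sets, in a list chosen with earlier results of these data known. On deprivation of fed worms 8 of the 10 changed above 0 and 2 below, with a median of 0.28, 1 rise and 0 falls. On average deprivation 2 rose and 0 fell (20% called, beside 4.1%), with a median of 0.215. None of the 10 had a mean signal below the median probe set, and their part in the vha-6 values was not tested.

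The other a subunits did not pass in the fit without the block. vha-5, which acts in the epidermis and the excretory canal, read 160.1 and 166 units fed and 147 and 108 fasted with cholesterol, and 219 and 164 fed and 154 and 117 fasted without it. All fasted arrays were below all fed arrays (-0.43 ± 0.15 SE, adjusted p = 0.118; 0.0185 with the block). The summed signal of 9 epidermal markers was 2965 to 3507 units in fed and 2513 to 3142 in fasted worms with cholesterol, and 2990 to 3448 in fed and 2890 to 3363 in fasted deprived worms. The summed signal of 7 excretory canal markers was 648 to 699 units in fed and 705 to 789 in fasted worms with cholesterol and 804 to 931 in fed and 943 to 1012 in fasted deprived worms. On fasting with cholesterol 6 of those 7 markers changed above 0, and 1 fell (-1.15). On fasting without cholesterol 3 changed above 0 and 4 below, with a median of -0.08. There 1 fell, and the lowest change was -1.09. Of those 7 markers, clh-3 and ceh-6 were below the median probe set, and the part of either tissue in the vha-5 values was not tested. unc-32, the a subunit best known from neurons, read 615 and 568 units fed and 669 and 605 fasted with cholesterol, and 463 and 477 fed and 613 and 665 fasted without it. Its lowest arrays were the fed deprived ones, and its average fasting change of 0.27 ± 0.08 (SE) had an adjusted p of 0.066. It passed under the bright-set shift (adjusted p = 0.0412), with log2(signal + 16) (0.0426) and with the block (0.0429). The 10 neuronal markers summed to 4744 to 5105 units in fed and 5844 to 6016 in fasted worms with cholesterol, and to 5528 to 5886 in fed and 6254 to 6469 in fasted deprived worms, snt-1 being the only one below the median probe set, and their part in the unc-32 values was not tested. The c ring genes vha-1 and vha-4 and the genes of the d and e subunits (vha-16 and vha-17) and of the accessory proteins (vha-19 and vha-20) changed on average fasting by -0.09 (vha-1) to 0.24 (vha-20), with no call.

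On average fasting 5 of the 28 autophagy genes rose, 0 fell and 23 did neither. The 17.9% called lie near the 15.8% of the brightest 60% of probe sets, with a median of 0.11 beside 0.03 over all probe sets. Of the 28, 20 had a change above 0, which is 71.4% beside 58% of all probe sets. With cholesterol the share above 0 was 64.3%, beside 62.9% of all probe sets, and the median 0.04, beside 0.08. Without cholesterol the share was 75% beside 45.6%, and the median 0.13 beside -0.02. In the single comparisons 1 rose with cholesterol (atg-16.1), or 3.57%, beside 5.16% of all probe sets, and 0 without it, beside 2.91%. The shares above 0 and the medians were not computed for the brightest 60% of probe sets.

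The paralogues atg-16.1 and atg-16.2 encode worm counterparts of ATG16L1, which directs the conjugating enzymes to the growing membrane, and both rose. atg-16.1 read 195 and 168 units in fed and 324 and 290.4 in fasted worms with cholesterol, and 167 and 153 in fed and 231 and 291 in fasted deprived worms. Its fasted arrays were above its fed arrays at each cholesterol state, with changes of 0.76 ± 0.15 (SE, adjusted p = 0.0329) with cholesterol and 0.69 ± 0.15 (adjusted p = 0.0588; 0.0267 with the block) without it, and an average of 0.72 ± 0.10 (adjusted p = 0.00648). The call with cholesterol was lost without either array of the fed or the fasted worms given cholesterol or either array of the fed deprived worms (adjusted p up to 0.164), whereas the average held without each array (adjusted p up to 0.0306).

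atg-16.2 read 642 and 572 units fed and 1032 and 756 fasted with cholesterol, and 511 and 438 fed and 797 and 733 fasted without it. Again no fed array reached a fasted one, and the average change was 0.62 ± 0.12 (SE, 1.53-fold, adjusted p = 0.0192). Its call was lost without replicate 2 of the fed worms with cholesterol, replicate 2 of the fed deprived worms or replicate 1 of the fasted deprived worms, with adjusted p up to 0.0729. The probe sets of both genes have names ending in _s_at and may pick up other transcripts. Their partners in the conjugation complex, atg-5 and lgg-3 (the Atg12 homologue), changed by -0.09 and 0.06 on average fasting, with 95% intervals of -0.44 to 0.27 and -0.14 to 0.25.

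**Figure D2:**
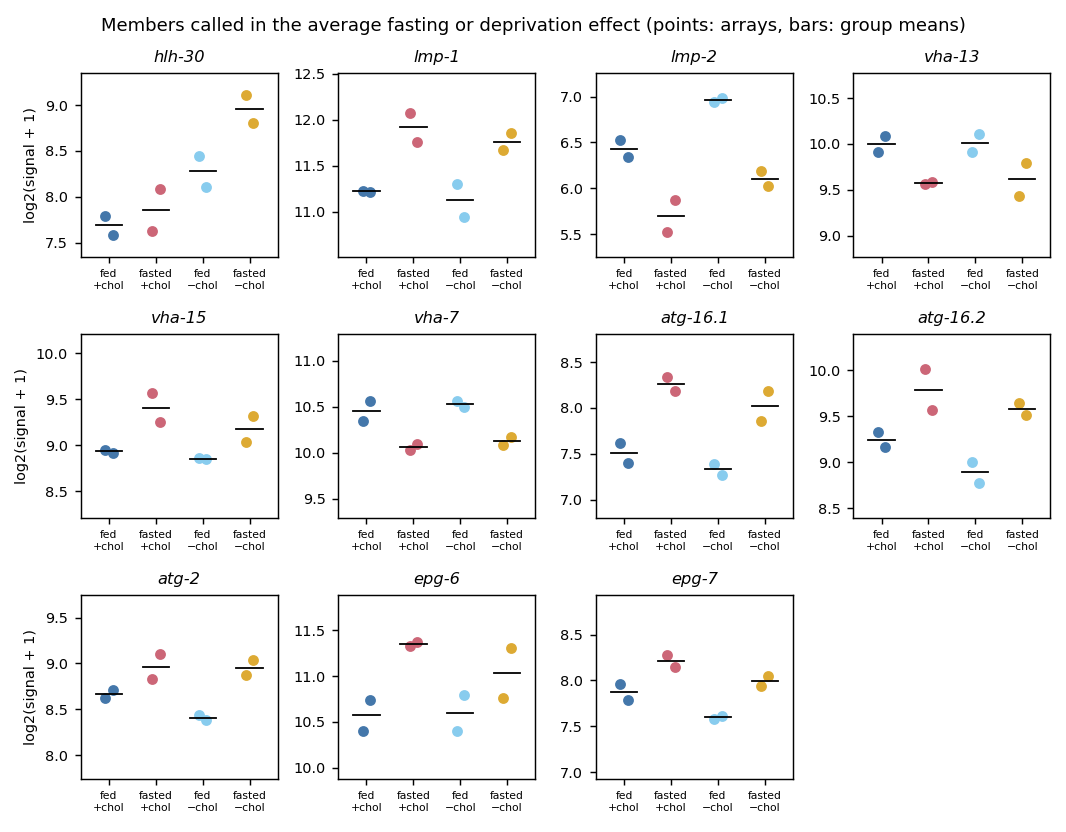
Log2(signal + 1) of each array (points) and the mean of each group of 2 arrays (bars) for the 11 members called in the average fasting effect or the average deprivation effect; each panel spans 2 log2 units. The fasted arrays of atg-16.1, atg-16.2, atg-2, lmp-1 and vha-15 lie above all their fed arrays, those of lmp-2, vha-7 and vha-13 below, and hlh-30 is higher in every deprived array than in any undeprived one.

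atg-2, a lipid transfer protein that supplies membrane, and epg-6, a PI3P-binding protein of the WIPI family that binds ATG-2, rose as well. atg-2 gave 394 and 419 units in fed and 453 and 550.2 in fasted worms with cholesterol, and 345 and 334 in fed and 469 and 523 in fasted deprived worms, with every fasted array above every fed one. Its average change was 0.42 ± 0.09 (SE, adjusted p = 0.0276), lost without either fed array of either diet or without replicate 2 of the fasted worms of either diet (adjusted p up to 0.0952). epg-6 read 1352 and 1714 units fed and 2570.1 and 2644 fasted with cholesterol. In deprived worms it read 1349 and 1772 units fed and 1737 and 2537 fasted, where the lower fasted array was below the higher fed one. The average change of epg-6 was 0.61 ± 0.15 (SE, adjusted p = 0.0478), and with an array left out it passed only when that was replicate 1 of the fasted deprived worms (adjusted p up to 0.138, without replicate 1 of the fed worms given cholesterol). It was lost with log2(signal + 16) too (adjusted p = 0.0689). The related WIPI gene atg-18 changed by -0.01 (95% interval -0.35 to 0.33) and the EI24-like gene epg-4 by -0.06.

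epg-7, a scaffold protein that binds the autophagy receptor SQST-1, rose among the genes of initiation. It read 248 and 219 units fed and 310.1 and 282 fasted with cholesterol, and 190.5 and 195 fed and 244 and 263 fasted without it. Fasted arrays were above fed arrays within each cholesterol state, but one fasted deprived array was below one fed undeprived array, and the average change was 0.37 ± 0.08 (SE, adjusted p = 0.0296). The call was lost without replicate 2 of either fed group or of the fasted deprived worms, replicate 1 of the fed deprived worms or either fasted array with cholesterol (adjusted p up to 0.0975). unc-51, the kinase that starts autophagy (ULK1 in mammals), read 112 and 89.1 units fed and 103 and 116 fasted with cholesterol, and 111 and 92.8 fed and 92.9 and 103.7 fasted without it. The arrays of all groups overlapped, and its average fasting change of 0.04 had an interval of -0.21 to 0.29. Its partners atg-13 and epg-9 (the ATG101 homologue) changed by -0.10 and 0.25, and the membrane protein gene atg-9 by 0.31, with no call except that of atg-9 with the block (0.0202).

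No gene of the PI3-kinase complex that nucleates the membrane passed on fasting. bec-1 (beclin 1) read 911 and 1096 units fed and 896 and 1139.6 fasted with cholesterol, and 805 and 744 fed and 732 and 864 fasted without it. Its fasting change averaged 0.03 (95% interval -0.24 to 0.29), whereas all 4 deprived arrays were below all 4 undeprived ones, a deprivation change of -0.36 ± 0.11 (SE, adjusted p = 0.162) that did not pass. The lipid kinase gene vps-34 and the ATG14-like gene epg-8 changed on average fasting by 0.21 and -0.28.

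The Atg8 genes, whose products mark autophagosomes, moved little. lgg-1 (GABARAP-like) read 8079 and 7762 units in fed and 8310.5 and 9679 in fasted worms with cholesterol, and 7674 and 7194 in fed and 8098 and 8614 in fasted deprived worms. Every fasted array was above every fed array, but the difference was small: 0.17 ± 0.08 (SE, adjusted p = 0.236), with an interval of -0.01 to 0.36. Its probe set lies above the 99th percentile of all values, near the top of the scale. lgg-2 (LC3-like) read 3936 and 4002 units fed and 3283 and 4464 fasted with cholesterol, and 4278 and 4559.9 fed and 4926 and 5225 fasted without it. Its fasted replicates with cholesterol lay on either side of the fed ones, and its average changes were 0.07 on fasting (adjusted p = 0.751) and 0.28 on deprivation (adjusted p = 0.24). A second, dimmer lgg-2 probe set, with a mean signal of 1961 units, read higher in fasted than in fed arrays within each cholesterol state. That probe set changed by 0.23 on average fasting, which did not pass (adjusted p = 0.116). Of the enzymes that process and conjugate these proteins, atg-3 (E2-like), atg-4.1 and atg-4.2 (proteases), atg-7 (E1-like) and atg-10 (E2-like for Atg12) had average fasting changes from -0.23 (atg-3) to 0.26 (atg-10), with no call.

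Of the cargo receptors, sqst-1 (p62 in mammals) read 2378 and 2146 units in fed and 3061 and 3081 in fasted worms with cholesterol, and 2569.7 and 2085 in fed and 2852 and 2491 in fasted deprived worms. The groups with cholesterol did not overlap and the deprived ones did, and its average fasting change of 0.32 ± 0.10 (SE, adjusted p = 0.0805; 0.0237 with the block) did not pass; a dimmer sqst-1 probe set gave 0.31. epg-2, a nematode receptor for germline granule proteins, had the widest replicate spread of the members: 1364 and 972 units fed and 1795 and 1062 fasted with cholesterol, and 736 and 338 fed and 893 and 791 fasted without it. All 4 deprived arrays were below all 4 undeprived ones, yet the change of -0.96 ± 0.28 (SE, 1.95-fold lower) had an adjusted p of 0.123 (0.0055 with the block). The fusion GTPase gene rab-7 changed by 0.12 on average fasting and 0.30 on average deprivation, neither past the threshold. A second, dimmer rab-7 probe set, with a mean signal of 111 units, rose by 0.43 on average deprivation (adjusted p = 0.0382), with every deprived array above every undeprived one.

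**Figure D3:**
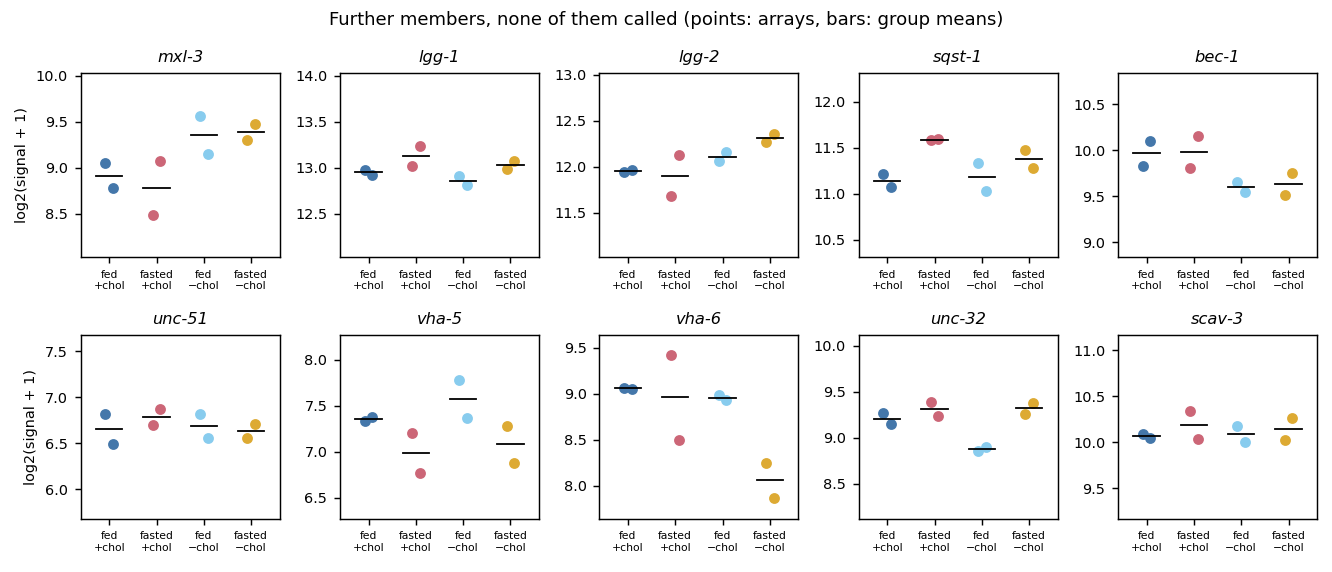
Log2(signal + 1) of each array (points) and group means of 2 arrays (bars) for 10 further members, none of which passed in any of the 7 contrasts without the block; each panel spans 2 log2 units. The fasted replicates of vha-6, mxl-3 and lgg-2 with cholesterol lie far apart, and the deprived arrays of mxl-3 lie above and those of bec-1 below the undeprived ones.

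The lysosomal membrane glycoproteins of the LAMP family moved in opposite directions on fasting, and both average calls held with each array left out in turn. lmp-1 read 2395 and 2383 units in fed and 4302 and 3475 in fasted worms with cholesterol, and 2531 and 1969 in fed and 3256 and 3696 in fasted deprived worms. All fed arrays were below all fasted ones, and lmp-1 rose 1.59-fold on average (0.67 ± 0.11 SE, adjusted p = 0.0126; up to 0.0492 with an array left out). A second lmp-1 probe set rose by 0.50 (adjusted p = 0.0414). Both lmp-1 probe sets have names ending in _s_at and may pick up other transcripts. Within each cholesterol state the changes of the brightest lmp-1 probe set, 0.69 and 0.64, did not pass (adjusted p = 0.0554 and 0.0993). With cholesterol the change passed under the bright-set shift (0.0342), with the mean of both probe sets (0.0431) and with the block (0.0204), and without cholesterol with that mean (0.0368) and with the block (0.039).

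lmp-2, whose signal lay near the array medians, read 91.1 and 80.2 units in fed worms with cholesterol and 45.0 and 57.7 after fasting, and 122 and 126 units in fed deprived worms and 71.8 and 64.2 after fasting. Its fasted arrays were below its fed arrays in each state, with changes of -0.73 ± 0.14 (SE, adjusted p = 0.0336) with cholesterol, -0.86 ± 0.14 (adjusted p = 0.0254) without it and -0.80 ± 0.10 (adjusted p = 0.00379; up to 0.0199 with an array left out) on average. A second lmp-2 probe set fell too, with an average change of -0.63 (adjusted p = 0.0234). The call with cholesterol was lost without either array of either fed group or replicate 1 of the fasted worms with cholesterol (adjusted p up to 0.175), and that of deprived worms without any one of their 4 arrays (adjusted p up to 0.154). At each feeding state the deprived arrays of lmp-2 read above the undeprived ones, an average deprivation change of 0.47 ± 0.10 (SE, adjusted p = 0.0519; 0.0262 with the block) that did not pass.

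Neither of the other lysosome membrane genes passed. scav-3, of the LIMP-2 and CD36 family, read 1090.0 and 1054 units fed and 1298 and 1049.7 fasted with cholesterol, and 1156 and 1024 fed and 1038 and 1232 fasted without it. All groups overlapped, and its interval on average fasting was -0.15 to 0.33. cup-5, the worm TRPML calcium channel, changed by -0.03 on average fasting and 0.19 on average deprivation.

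Averaged over both feeding states, hlh-30 rose on cholesterol deprivation, and it was the only member called there in the fit over all 8 arrays. hlh-30 read 221 and 191 units in fed and 197 and 269.9 in fasted worms with cholesterol, and 348 and 274 in fed and 551 and 447 in fasted deprived worms. Each deprived array was above each undeprived one, by a few units between the lowest deprived and the highest undeprived array, the fasted deprived worms were highest, and the average change was 0.84 ± 0.14 (SE, 1.8-fold, adjusted p = 0.0224). This is 1 of 53 members, or 1.89%, beside 4.1% of all probe sets, of which 2.03% rose. By feeding state the change was 0.59 ± 0.20 in fed worms (adjusted p = 0.251) and 1.10 ± 0.20 in fasted worms (adjusted p = 0.0583). The change of fasted worms passed with the dimmest 40% of probe sets left out (0.0452) and with the block (0.0198). It was 0.64 without the _s_at and _x_at probe sets and 0.46 with the mean of all hlh-30 probe sets (adjusted p = 0.0889 and 0.121), and across the alternatives that keep all 8 arrays its adjusted p ran from 0.0198 to 0.121. The average change was 0.54 and 0.44 under those 2 settings, still past the threshold (adjusted p = 0.0237 and 0.0224). The average call was lost without either fed array with cholesterol, or without replicate 1 of any other group, with adjusted p up to 0.0729. The count of members called was 0 without replicate 1 of either group given cholesterol or of the fasted deprived worms. It rose to 3 when the second fasted array with cholesterol was removed.

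Of the 2 other hlh-30 probe sets, the one with a mean signal of 167 units rose by 0.55 (adjusted p = 0.0276), and the one at 33.5 units, near the dim end of the scale, changed by -0.06 on average and by -0.36 in fasted worms. The brightest hlh-30 probe set is of the _s_at kind, which can match more than one transcript. In the brightest probe set, fasting changed hlh-30 by 0.17 ± 0.20 (SE) with cholesterol and 0.68 ± 0.20 without it. Neither passed the threshold (adjusted p = 0.643 and 0.145), and the difference between these, 0.52 ± 0.28, had an adjusted p of 0.548. The average fasting change passed only with the mean of all 3 probe sets (0.31, adjusted p = 0.0426). The probe set at 167 units changed by 0.205 on fasting with cholesterol and 0.40 without it. The dim one at 33.5 units changed by 0.49 and -0.10, a difference of opposite sign (-0.595, adjusted p = 0.432).

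mxl-3 read 532 and 438 units in fed and 359 and 539.9 in fasted worms with cholesterol, and 757 and 566 in fed and 630.1 and 711 in fasted deprived worms. Its deprived arrays were all above its undeprived ones, but the change of 0.52 ± 0.16 (SE, adjusted p = 0.145) did not pass. On fasting it changed by -0.05 on average, with an interval of -0.42 to 0.32, and its fasted replicates with cholesterol lay on either side of both fed ones.

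**Figure D4:**
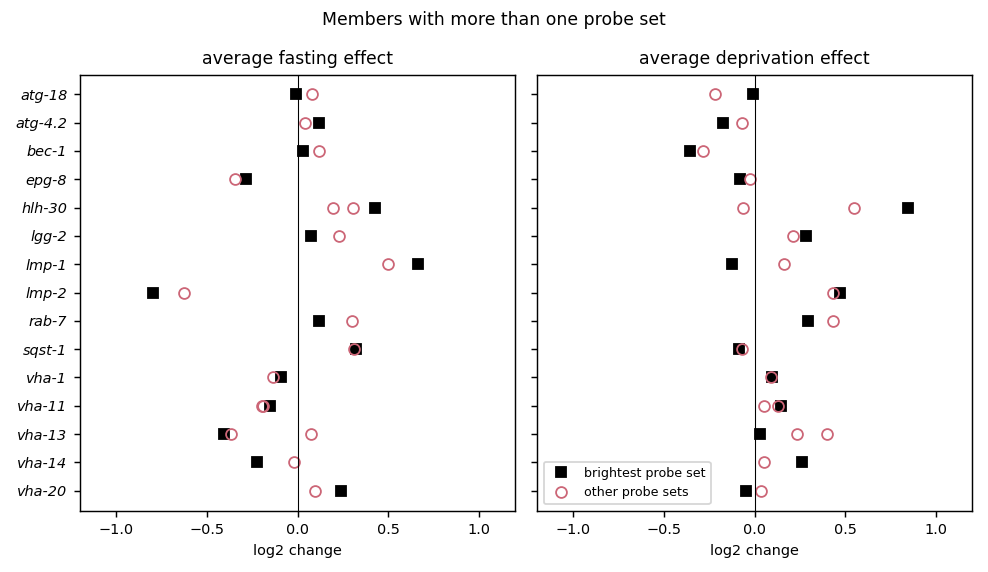
Log2 change in the average fasting effect (left) and the average deprivation effect (right) for the 15 members with more than 1 probe set; squares are the brightest probe set, which represents the gene, and circles the others. The lmp-1 and lmp-2 probe sets lie on the same side of 0 on fasting, those of vha-13 do not, and the dim hlh-30 probe set at -0.06 on deprivation stands apart from the other 2.

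In the separate deprivation comparisons limma called 0 of the 53 members in fed worms, beside 1.21% of all probe sets, and 0 in fasted worms, beside 1.1%. At an unadjusted p under 0.05 there were 9 members (17%) in fed worms, beside 13.7% of all probe sets, and 7 (13.2%) in fasted worms, beside 14%. The largest of these changes in fed worms was that of epg-2 (-1.21 ± 0.39 SE, adjusted p = 0.231; 0.0168 with the block), followed by atg-10 (-0.94 ± 0.23, adjusted p = 0.125; 0.0346 with the block). In fed worms atg-10 read 170.5 and 103.7 units with and 78.0 and 60.6 units without cholesterol, with no overlap but with the undeprived replicates far apart. In fasted worms it read 115 and 118 units with and 109 and 117 units without cholesterol, which overlapped. Without replicate 2 of the fasted worms given cholesterol, 1 member (vha-6) passed in fasted worms.

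The other lysosomal genes were taken from a list of 37 measured enzymes and transporters, from cathepsins and acid lipases to sphingolipid hydrolases. On average fasting 17 of the 37 fell, 4 rose and 16 did neither, with a median of -0.35. The called share was 56.8%, beside 10.6% of all probe sets and 15.8% of the brightest 60%. On average deprivation 12 fell, 2 rose and 23 did neither, with a median of -0.32 (37.8% called, beside 4.1%). The list was chosen with earlier results of these data known. Within fasted worms deprivation lowered 8 of the 37, or 21.6%, beside 1.1% of all probe sets. Among these 8 were the aspartyl protease gene asp-3 (-2.62), the acid ceramidase gene asah-1 (-2.60) and the lipase genes lipl-1 (-3.61) and lipl-5 (-1.48). The fasted deprived worms were also those in which the hlh-30 signal was highest. The corresponding medians of the V-ATPase and autophagy members in fasted worms were 0.01 and 0.01, with no call. Whether these lists differ from each other was not tested.

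**Figure D5:**
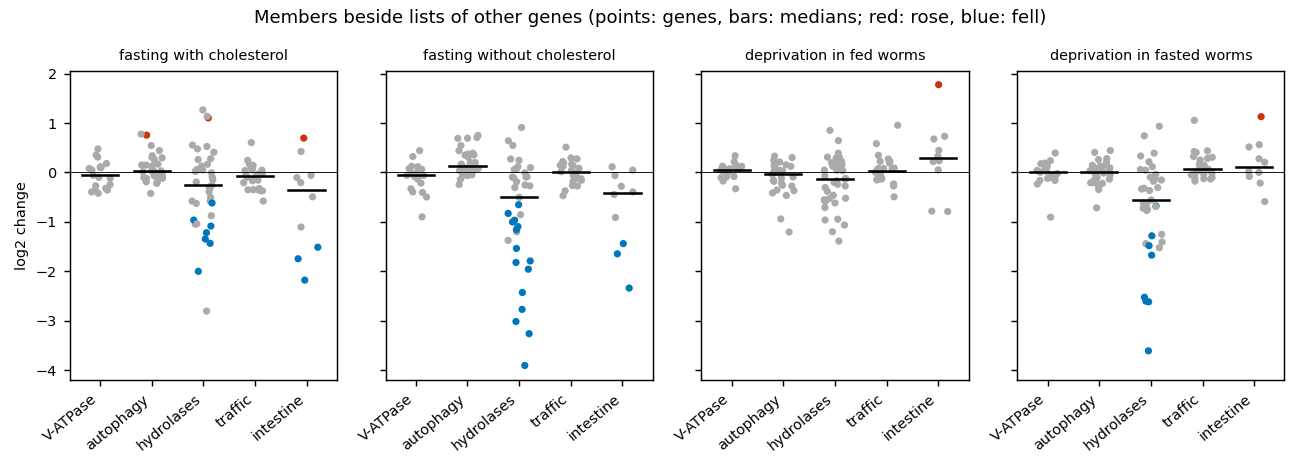
Log2 change of single genes (points) and the median of each list (bars) in 4 comparisons, for the V-ATPase members, the autophagy members, lysosomal hydrolases, endolysosomal traffic genes and intestinal markers; red genes rose, blue genes fell and grey genes did neither. All plotted members but epg-2 on deprivation of fed worms lie within 1 log2 unit of 0, while single hydrolases extend below -3 on fasting without cholesterol and on deprivation of fasted worms.

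Signalling genes upstream of autophagy were taken from a list of 24 measured genes of the TOR, Rag GTPase, AMPK and insulin pathways. On average fasting 2 of the 24 rose, 0 fell and 22 did neither, or 8.33% called, beside 10.6% of all probe sets. The 2 were the AMPK catalytic subunit gene aak-2 (0.59, adjusted p = 0.00763) and the kinase gene pdk-1 (0.59, adjusted p = 0.0092). With cholesterol aak-2 rose (0.63, adjusted p = 0.035) while the second catalytic subunit gene aak-1 fell (-0.53, adjusted p = 0.0483). Those 2 genes were 8.33% of the 24, beside 5.16% of all probe sets. Of 13 transcription factors and regulators known to act with HLH-30 or in the fasting response, none passed limma in any contrast. They include the Max-like genes mxl-1 and mxl-2, mdl-1, mml-1 and the nuclear exporter gene xpo-1. On average deprivation 4 of the 13 (30.8%) had an unadjusted p under 0.05, beside 16.6% of all probe sets. On average fasting 1 (7.69%) did, beside 24.9%. The strongest of the 13 on average deprivation was mxl-2 (0.42, adjusted p = 0.0871).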

How the data were processed

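Total RNA of 8 whole-worm samples was hybridised to 1-colour Affymetrix arrays. The deposited values are 1 intensity per probe set and array on a linear scale, which the authors made with RMA per the submitters' processing notes (version not stated there). This method brings all arrays to a common distribution and makes no detection call. Of 22625 probe sets, 77 controls were left out. The platform annotation gave 1 symbol to 20766, several to 887 and none to 895, and all 53 members matched the RefSeq WBcel235 gene table by gene number.

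Changes were computed on log2(signal + 1), a scale that shrinks those of dim genes. All 22548 remaining probe sets were fitted with limma 3.58.1 in R 4.3.3 (lmFit, eBayes), using a mean for each group, 4 residual and 3.37 prior degrees of freedom. Two-sided p-values received a Benjamini-Hochberg adjustment in each of 7 contrasts. Nothing says that replicates came from separate days, so p-values measure the spread between these arrays. Deviations of same-numbered arrays from their group means correlated at r = 0.218 to 0.530 in 6 of 6 pairs of groups; this hint of pairing comes from the data, not from the labels, so the fit without the replicate block stayed the main one. On simulated arrays, 85% of 2-fold and 99% of 4-fold changes were recovered in the average fasting effect (5 false calls) and 27% and 76% in the interaction (3 false calls). The simulated noise was independent between arrays, without the correlation of same-numbered arrays. Changes below 2-fold were not simulated, so the recovery shares do not cover the smaller changes called here on average fasting. Figures were drawn with matplotlib 3.10.9.

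The members and the gene lists were chosen with earlier results of these data known. All members may be named; every array is given for members called in any contrast and for 12 genes (hlh-30, mxl-3, lgg-1, lgg-2, sqst-1, bec-1, unc-51, vha-5, vha-6, unc-32, lmp-1 and scav-3), and up to 4 genes with the smallest p from each other list. Epg-2 and atg-10 were added after their values were seen. The alternatives were cyclic loess, a shift to an equal median of the bright probe sets, leaving out the dimmest 40% of probe sets, log2(signal + 16), leaving out probe sets named _s_at or _x_at, the mean of all probe sets of a gene, the replicate number as a block, and leaving out each array in turn. Sequences were not analysed here.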

Additional observations from a re-analysis of the deposited data

How the results depend on the processing

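With 2 arrays a group, calls near the threshold depended on single arrays. The counts below with an array left out, without some probe sets, with gene means or with log2(signal + 16) stand without the share of all probe sets. They do not show whether members gained or lost more calls than other genes. Leaving out 1 array at a time gave 3 to 7 called members for average fasting, 0 to 2 for fasting at each cholesterol state, 0 to 0 for deprivation in fed worms and for the interaction, 0 to 1 for deprivation in fasted worms and 0 to 3 for average deprivation. The bright-set shift gave 4 called members for fasting with cholesterol, 2 for fasting without it and 2 for average deprivation. Over all probe sets it called 1512, 700 and 948, in place of 1164, 656 and 925. Without the probe sets named _s_at or _x_at, 31 members were measured, and 1 was called for fasting with cholesterol, 3 for average fasting and 2 for average deprivation. The mean of all probe sets of a gene gave 3 for fasting without cholesterol and 2 for average deprivation, log2(signal + 16) gave 2 for average deprivation, and leaving out the dimmest 40% gave 1 for deprivation in fasted worms. Lmp-1, lmp-2 and atg-16.1 passed on average fasting under every alternative that measured them; lmp-1 and atg-16.1 have no value without the _s_at and _x_at probe sets. The average fasting change of vha-13 was 0.076 without those probe sets, where another probe set stands for the gene. Over all called probe sets, the bright-set shift raised the share that was higher on fasting with cholesterol from 39.3% to 60.9%. The number of arrays limits the precision, and epg-3 and epg-5 lay below the median probe set.

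With the replicate number as a block, 8 members were called for fasting with cholesterol, 6 for fasting without it, 2 and 1 for deprivation in fed and in fasted worms, 0 for the interaction, 18 for average fasting and 4 for average deprivation. The block ended none of the calls made without it.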

Other observations

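Among 24 measured genes of endosome and lysosome traffic, 0 passed limma on average fasting (4 at an unadjusted p under 0.05, or 16.7%, beside 24.9% of all probe sets), with a median log2 change of -0.06. On average deprivation 1 of the 24 rose, or 4.17%, beside 4.1% of all probe sets. It was glo-3, needed for the lysosome-related gut granules, which rose by 1.005 (adjusted p = 0.0109).

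The sum of the 37 hydrolase signals was 69512 to 81773 units in fed and 46945 to 50397 in fasted worms with cholesterol, and 61402 to 67920 in fed and 31141 to 34611 in fasted deprived worms, with 7 of the 37 below the median probe set. Of these enzymes the aspartyl protease gene asp-1 had the smallest p on average fasting and fell, with a log2 change of -2.23 (adjusted p = 7.96e-05), while on fasting with cholesterol the cathepsin B-like gene cpr-2, one of the dim ones, rose by 1.10 (adjusted p = 0.00184). Germline markers summed to 25105 to 26359 and 23193 to 25925 units in fed worms with and without cholesterol and to 19581 to 22709 and 20171 to 24505 units in fasted worms with and without it.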
